A study of Mus musculus with 4 samples.

Results

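Dmkn, Pglyrp1, Lgals2, Tff1 and Sprr1a are 5 genes of secreted or cornified epithelial proteins, out of 23521 genes measured in Hepa1-6 cells, a mouse hepatoma line. They were listed by name, and the list was chosen by differences between control and Chd1-depleted cells in these same libraries, so their group differences are given as a description, with no p-value. The working name of the list speaks of genes lost with Chd1. Dmkn stood at 0.034 of its Control level in the depleted libraries, Pglyrp1 at 0.19, Lgals2 at 0.36 and Tff1 at 0.61. Pglyrp1, Lgals2 and Tff1 stayed above 1 RPKM in both depleted libraries, so they were lower rather than lost. Sprr1a went against the name: it was one of the most abundant mRNAs of these cells and was higher, not lower, in the depleted libraries.

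Hepa1-6 cells of the Control group (2 libraries, labelled wild type) received a lentivirus with a scrambled shRNA, and those of the Chd1KD group (2 libraries, labelled Chd1 knock down) a lentivirus with an shRNA against Chd1, an ATP-dependent chromatin remodeler. All cells grew in DMEM with 10% serum and were kept under 4 μg/ml puromycin for 3 weeks before polyA RNA was sequenced, and no time before selection was sampled. The labels leave unsaid how many shRNAs were used, whether selected cells were clones or pools, and whether replicates stem from independent transductions. P-values therefore rest on the variation among 4 libraries, some or all of which may be technical.

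Chd1 itself measured 21.4 and 22.5 RPKM in Control, against 10.4 and 11.3 in Chd1KD (RPKM, reads scaled by transcript length and by the number of mapped reads). About 0.49 of the Control level therefore remained in the depleted cells. Summed RPKM ranged from 459381 to 484490 per library, and read depth was not stated. Of 10 hepatocyte and hepatoma markers, Ttr and Serpina1a were listed at 0 in all 4 libraries and Apoa1 and Ahsg stayed under 1 RPKM, whereas Afp, Alb, Trf, Apob, Fgb and Hnf4a were present. Afp, the fetal counterpart of serum albumin, measured 29.9 and 39.7 RPKM in Control, against 55.2 and 58.3 in Chd1KD (ratio 1.63, limma, adjusted p = 0.077). Apob, Hnf4a and Trf had ratios of 0.72, 0.78 and 0.82 without overlap of the groups (limma, adjusted p = 0.12, 0.12 and 0.21). The groups also did not overlap for 51.8% of all tested genes, those averaging 1 RPKM or more. None of the 6 present markers was called (limma), against 0.46% of all tested genes, and 4 had an unadjusted p under 0.05, against 18.5%.

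These genes are known from different epithelia, stratified and mucosal. Stratified epithelia such as skin build a cornified envelope, a sheet of cross-linked protein under the plasma membrane whose small proline-rich (SPRR) precursors are clustered in the epidermal differentiation complex. Mucosal epithelia secrete trefoil peptides, which bind mucins and aid repair, and peptidoglycan recognition proteins, which bind bacterial cell walls. Galectins bind β-galactoside sugars and leave the cell without a classical signal peptide. Dermokine (Dmkn) is a secreted protein of stratified epithelium, encoded beside the skin genes Sbsn and Krtdap.

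The promoters of the genes are shown as a description. A link between their motifs and the direction of the group differences was not tested. RefSeq (GRCm38.p6) held windows for 4 of the 5 genes, Dmkn, Pglyrp1, Lgals2 and Sprr1a. The 250 bases before the RefSeq start are shown for each, 5′ to 3′ on the strand of the gene, with capitals marking matches to the motifs searched. For Dmkn the window shown is that of its internal start, which belongs to the only Dmkn transcript listed with a signal. Which start the cells used was not measured.
Dmkn, internal start (chr7:30776155-30776404, plus strand): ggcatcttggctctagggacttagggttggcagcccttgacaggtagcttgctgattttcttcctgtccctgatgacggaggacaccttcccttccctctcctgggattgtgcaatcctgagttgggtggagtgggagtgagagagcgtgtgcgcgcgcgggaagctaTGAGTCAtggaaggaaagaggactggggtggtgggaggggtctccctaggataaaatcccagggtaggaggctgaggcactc
Sprr1a (chr3:92485882-92486131, minus strand): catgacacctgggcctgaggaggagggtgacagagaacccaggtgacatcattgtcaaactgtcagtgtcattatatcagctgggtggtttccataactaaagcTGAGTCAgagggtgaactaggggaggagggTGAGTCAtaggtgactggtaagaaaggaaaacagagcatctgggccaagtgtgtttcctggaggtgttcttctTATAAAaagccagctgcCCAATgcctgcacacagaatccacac
Pglyrp1 (chr7:18884440-18884689, plus strand): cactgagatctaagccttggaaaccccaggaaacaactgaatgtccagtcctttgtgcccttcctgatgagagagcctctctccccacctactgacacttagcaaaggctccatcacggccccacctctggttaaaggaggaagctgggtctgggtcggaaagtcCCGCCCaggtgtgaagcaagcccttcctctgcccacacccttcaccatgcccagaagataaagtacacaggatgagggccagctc
Lgals2 (chr15:78855530-78855779, minus strand): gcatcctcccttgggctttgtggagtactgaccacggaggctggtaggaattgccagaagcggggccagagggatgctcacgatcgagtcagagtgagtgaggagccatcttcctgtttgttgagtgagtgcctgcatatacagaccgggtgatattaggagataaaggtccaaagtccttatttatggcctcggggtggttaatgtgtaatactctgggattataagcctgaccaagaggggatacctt

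The search covered 5 motifs on both strands, the TATA box (TATAAA), AP-1 (TGANTCA), Grainyhead-like (AACCNGGTT), Sp (GGGCGG) and the CCAAT box (CCAAT). In Sprr1a, AP-1 letters began 146 and 116 bases before the start, TATA letters 43 bases before it and CCAAT letters 26 bases before it. In Dmkn, AP-1 letters began 82 bases before the internal start and 89 bases before the first, upstream start. Pglyrp1 held only the Sp motif, on the minus strand, beginning 85 bases before its start, and Lgals2 held none of the 5. These distances are from the RefSeq starts. GENCODE M21 places the starts of Sprr1a, Pglyrp1 and the internal Dmkn transcript inside the windows, at 92485895, 18884680 and 30776401. Among all 32851 RefSeq windows of this length, 6.75% held the AP-1 motif, 12.4% the TATA motif, 33.9% the CCAAT motif, 32.7% the Sp motif and 0.24% the Grainyhead-like motif. The Sprr1a window had no CpG, that of Pglyrp1 had 3, and those of Lgals2 and of the internal Dmkn start had 6 each, against a median of 6 over all windows.

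By mean over the 4 libraries, the levels of the 5 genes ran from 2.585 RPKM for Dmkn to 2766 RPKM for Sprr1a. In Control, mean RPKM was 2473 ± 378 for Sprr1a, 25.3 ± 0.47 for Tff1, 15.7 ± 0.46 for Lgals2, 9.05 ± 2.92 for Pglyrp1 and 4.998 ± 2.72 for Dmkn (SD, n = 2 each). The intervals of 1 SD overlapped only for the neighbours Pglyrp1 and Dmkn in that order. In Chd1KD the order was the same and no intervals of 1 SD overlapped, with 3060 ± 280, 15.5 ± 0.16, 5.70 ± 1.19, 1.74 ± 0.53 and 0.17 ± 0.18 RPKM. By mean level over the 4 libraries, Sprr1a ranked 9 among the 10209 tested genes, those averaging 1 RPKM or more. Tff1 ranked 3683, Lgals2 5645, Pglyrp1 7536 and Dmkn 9012.

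**Figure D1:**
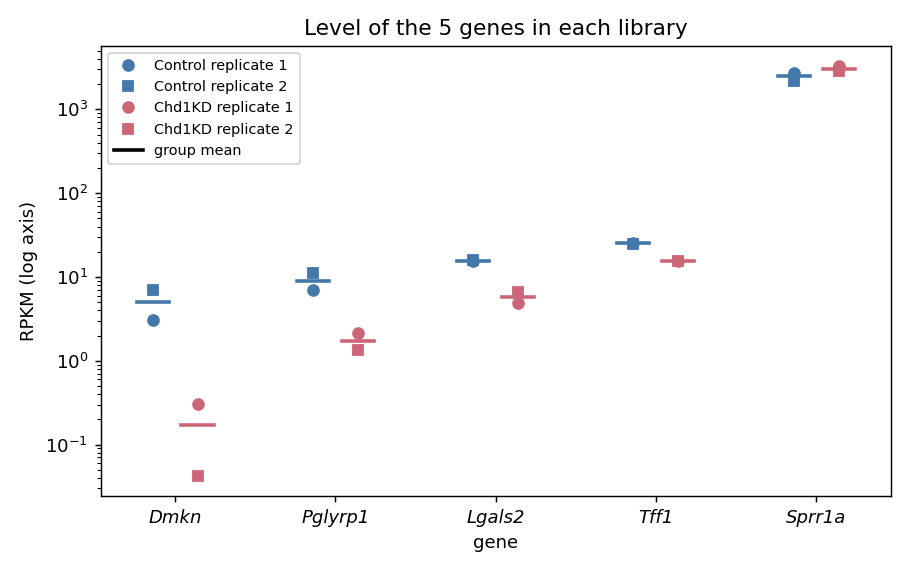
RPKM of the 5 genes (log axis) in each of the 2 Control (blue) and 2 Chd1KD (red) libraries; circles are replicate 1, squares replicate 2, and bars the group means. Dmkn, Pglyrp1, Lgals2 and Tff1 lie lower in both Chd1KD libraries, and Sprr1a, at 2205 RPKM or more throughout, lies higher.

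All 5 genes passed the filter of 1 RPKM, Dmkn only through its Control level. Of the 10209 tested genes, 47 (0.46%) were called at an adjusted p under 0.05 (limma, Benjamini-Hochberg), and 19 (0.186%) were called lower. Dmkn, Pglyrp1, Lgals2 and Tff1 were among these 19 and Sprr1a was not called, but this comparison chose the list and nothing is read from that count. The 2 Control and 2 Chd1KD values did not overlap for any of the 5 genes. The same held for 51.8% of all tested genes in either direction and for 30.5% in the lower direction.

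Dmkn, the secreted skin protein, lies on chromosome 7 from 30763756 to 30781066 (GRCm38). It measured 3.07 and 6.92 RPKM in Control, against 0.302 and 0.042 in Chd1KD. Both Control values lay above both Chd1KD values, and each group varied widely within itself. The Chd1KD mean was 0.034 of Control, and the difference was -2.29 on the log2(RPKM + 1) scale, the 6th lowest of all tested genes. The added 1 makes differences on this scale smaller for genes of low level. Between the 2 Control libraries Dmkn differed by 0.96 on that scale, more than 99.8% of tested genes. The Chd1KD libraries differed 7.13-fold from each other.

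The whole Dmkn signal was assigned to 1 of its 4 RefSeq transcripts. NM_028618 begins at an internal start 12645 bases beyond the first one, has 7 exons and 662 bases, and encodes 104 residues. The 3 long transcripts, with 18 to 20 exons and 493 to 524 residues, were listed at 0 in all 4 libraries. Of the 662 bases of the short transcript, 560 are also exons of the long ones and 102 are its own, while 1503 exonic bases belong only to the long forms. Reads in shared exons cannot be assigned to a form by sequence alone, and an exact 0 in these values need not mean absence.

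**Figure D2:**
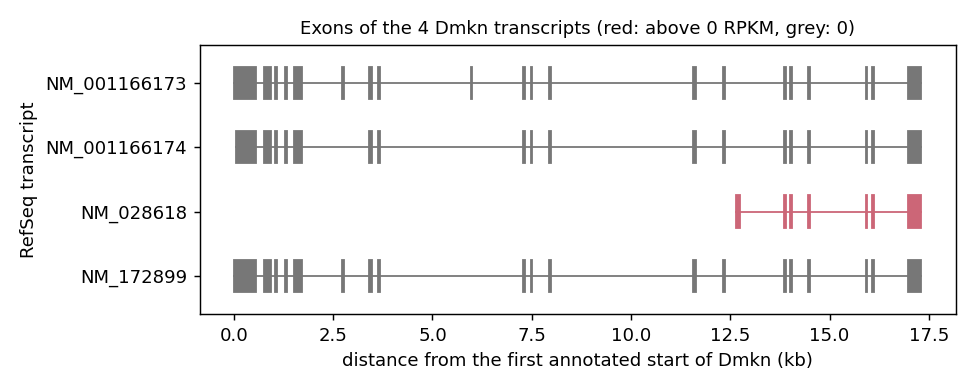
Exons (boxes) of the 4 Dmkn transcripts against the distance in kb from the first annotated start; red marks the transcript with RPKM above 0, grey the 3 listed at 0. The short transcript NM_028618 starts 12645 bases downstream of the long forms and shares their last exons.

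The lowest Dmkn value lies near the smallest values in the tables. Multiplied by transcript length in kilobases, low RPKM values of all transcripts piled up between 0.015 and 0.02 in every library and again between 0.035 and 0.045. The length used by the quantifier is not known, and whole reads could not be recovered from these steps. On this scale Dmkn stood at 0.028 in Chd1KD replicate 2, between the first and the second step, and at 0.2 in Chd1KD replicate 1. Its Control libraries stood at 2.04 and 4.58. With a pseudocount of 0.1 in place of 1 the log2 difference of Dmkn was -4.30, and without Chd1KD replicate 2 it was -2.125.

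Pglyrp1 encodes the short secreted peptidoglycan recognition protein, which in mammals is also stored in neutrophil granules. The gene lies on chromosome 7 from 18884690 to 18890438, has 3 exons and encodes 182 residues. It measured 6.99 and 11.1 RPKM in Control, against 2.12 and 1.36 in Chd1KD. The groups stood apart, with the Chd1KD mean at 0.19 of Control and a log2 difference of -1.86, the 8th lowest. Like Dmkn, it was higher in Control replicate 2 than in Control replicate 1 and lower in Chd1KD replicate 2 than in Chd1KD replicate 1. Its difference between the Control libraries, 0.60, was larger than in 99.1% of tested genes.

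Lgals2 encodes galectin-2, a lectin of gut epithelium with 130 residues. It lies on chromosome 15 from 78850860 to 78855529. It measured 15.3 and 15.99 RPKM in Control, against 4.86 and 6.55 in Chd1KD. The Control libraries were close to each other and the Chd1KD libraries less so, with a difference of 0.37 that exceeded that of 98.2% of tested genes. The ratio was 0.36 and the log2 difference -1.33, the 10th lowest. Lgals2 shares 43 bases with Cdc42ep1, a gene on the opposite strand that binds the GTPase Cdc42, and reads there cannot be told apart without strand. Cdc42ep1 measured 18.8 and 19.7 RPKM in Control, against 18.4 and 16.2 in Chd1KD (limma, adjusted p = 0.36).

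Tff1 encodes a trefoil peptide of 87 residues that the stomach secretes with mucus. It lies on chromosome 17 from 31161395 to 31165060. It measured 25.6 and 24.98 RPKM in Control, against 15.6 and 15.3 in Chd1KD. These were the tightest replicates of the 5 genes. The ratio was 0.61 and the log2 difference -0.68, the 29th lowest, and every pair of a Chd1KD and a Control library differed by between -0.71 and -0.65.

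Sprr1a encodes a proline-rich precursor of the cornified envelope with 144 residues, which is cross-linked inside the cell rather than secreted. It lies on chromosome 3 from 92483954 to 92485881. It measured 2740 and 2205 RPKM in Control, against 3258 and 2861 in Chd1KD. It made up 0.52% of the summed RPKM in Control and 0.66% in Chd1KD. The Chd1KD mean was 1.24 times Control and the log2 difference 0.31, of the same size as the difference of 0.31 between the 2 Control libraries. The lowest Chd1KD value and the highest Control value lay close together, with pairs between groups differing by 0.06 to 0.56. The difference was 0.47 without Control replicate 1 and 0.16 without Control replicate 2.

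**Figure D3:**
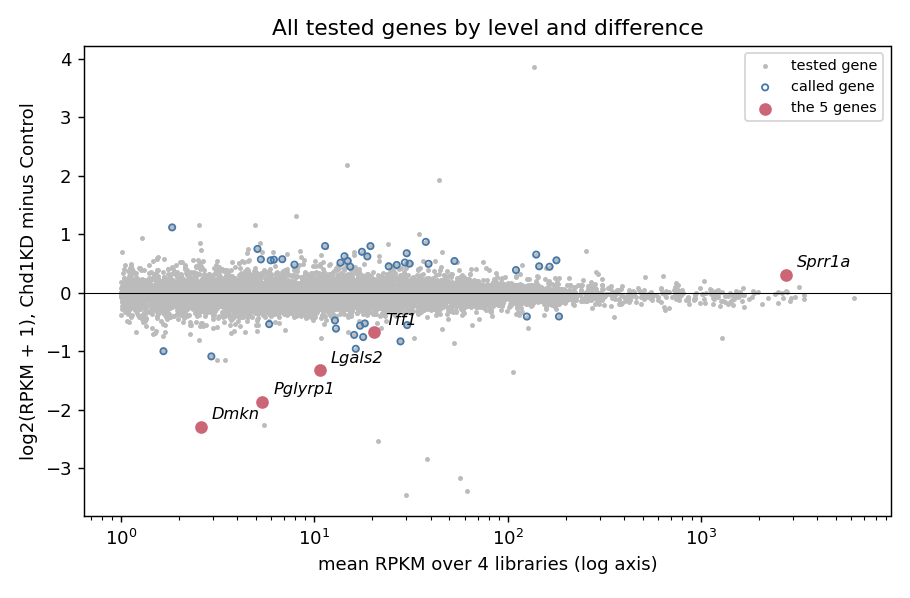
Difference between groups on the log2(RPKM + 1) scale against mean RPKM (log axis) for the 10209 tested genes (grey), with the 47 called genes ringed in blue and the 5 genes in red. Dmkn, Pglyrp1, Lgals2 and Tff1 lie below 0 at -2.29, -1.86, -1.33 and -0.68, and Sprr1a lies above 0 at 0.31 at the far right.

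The closest patterns to each gene were found as the smallest Euclidean distance between mean-centred log2(RPKM + 1) values over the 4 libraries, a description over few points that share the same libraries. Unnamed loci were skipped in this search. The list was chosen on differences between these same groups, so closeness to other genes with large differences, Chd1 among them, follows from that choice. Nothing about shared regulation is read from it. Dmkn and Pglyrp1 were each other's nearest gene among the other tested genes (distance 0.50). Lgals2 and the annexin Anxa8 followed for both, at 1.25 and 1.44 from Dmkn and at 0.85 and 0.97 from Pglyrp1. Lgals2 was nearest to Anxa8 (0.39), then to Chd1 itself (0.41) and to Skp2, an F-box protein of the cell cycle (0.57). Among the genes close to Tff1 were Timeless, a replication fork protein, and Rdh10, a retinol dehydrogenase (0.12 and 0.13). Sprr1a was nearest to Rhob, a small GTPase (0.042), then to Ubtd1 and Lhfpl2 (0.057 and 0.058), which are not among the called genes.

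Whether relatives of the 5 genes moved with them was read from the same fit over all genes. None of the 9 tested relatives, 6 galectins and galectin-related genes, Tff2, Tff3 and Sprr1b, was called (limma, adjusted p from 0.10 to 0.74; 3 had an unadjusted p under 0.05), against 0.46% of all tested genes. Among trefoil genes, Tff2, a gastric and pancreatic trefoil peptide, measured 244 and 271 RPKM in Control, against 270 and 291 in Chd1KD. It was far more abundant than Tff1 in every library, and its groups overlapped (ratio 1.09, limma, adjusted p = 0.40). Tff3, the trefoil peptide of goblet cells, measured 22.3 and 27.8 RPKM in Control, against 19.8 and 14.9 in Chd1KD. Its ratio was 0.69 and its groups did not overlap, but it did not pass (limma, adjusted p = 0.15) except without Chd1KD replicate 1.

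Among galectins, Lgals1, the most abundant, measured 2475 and 2082 RPKM in Control, against 2217 and 2079 in Chd1KD, and its groups overlapped. Lgals3 had ratio 0.89, Lgals8 1.15, Lgals9 1.05 and the galectin-binding glycoprotein Lgals3bp 1.07. Lgalsl, a galectin-related protein, was lowest at 0.69 (4.03 and 3.93 RPKM against 2.89 and 2.59 RPKM, limma, adjusted p = 0.10). The 6 had a median log2 difference of -0.01 against -0.02 over all tested genes. Lgals4 stayed under 0.19 RPKM, and Lgals7 and Lgals12 were listed at 0 in all libraries.

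The other peptidoglycan recognition genes were near or at 0. Pglyrp2 reached at most 0.43 RPKM, and Pglyrp3 and Pglyrp4 were listed at 0 in all libraries. Of 25 listed genes of epithelial host defence, 4 were tested and none was called (limma; 2 had an unadjusted p under 0.05, against 18.5% of all tested genes). Il1rn, the interleukin-1 receptor antagonist, measured 8.33 and 7.44 RPKM in Control, against 4.97 and 5.44 in Chd1KD (ratio 0.66, limma, adjusted p = 0.067). It was called with the replicate number as a block, with a robust trend, without Control replicate 2 and without Chd1KD replicate 2. Ang, an antimicrobial ribonuclease, had ratio 1.70 (limma, adjusted p = 0.18; called without Control replicate 2), and Wfdc2, a protease inhibitor of epithelial secretions, 1.53 (limma, adjusted p = 0.33).

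**Figure D4:**
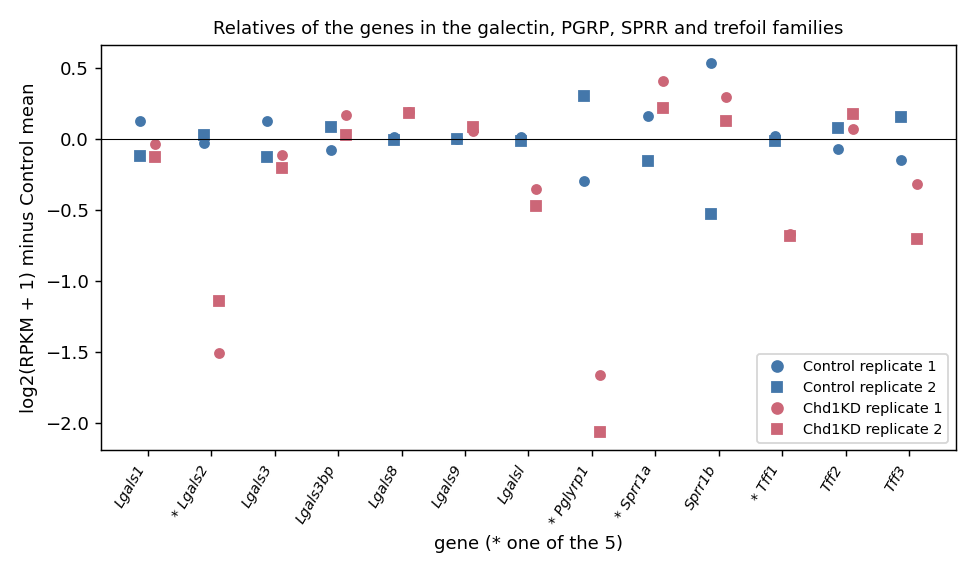
Difference of each library from the Control mean on the log2(RPKM + 1) scale for the tested galectin, peptidoglycan recognition, SPRR and trefoil genes; asterisks mark the genes of the list, blue is Control and red Chd1KD. The red points of Lgals2, Pglyrp1 and Tff1 lie below all blue points, as do those of Lgalsl and Tff3, whereas those of Tff2 and Sprr1b overlap blue ones.

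The cornified envelope programme around Sprr1a was sparse. Of 41 matched envelope and epidermal differentiation complex genes, 36 had a mean under 1 RPKM, 25 of them listed at 0 in all libraries. The 5 tested, Sprr1b, Lce1g, Lce1h, Ppl and Sbsn, included no called gene (limma; none had an unadjusted p under 0.05), and 4 had a positive difference. Sprr1b, the closest relative of Sprr1a, measured 41.9 and 19.5 RPKM in Control, against 35.4 and 31.4 in Chd1KD, so its groups overlapped. It was called without Control replicate 1, at a log2 difference of 0.74, and stood at -0.32 without Control replicate 2. Lce1h, a late cornified envelope gene, measured 7.67 and 1.45 RPKM in Control, against 16.2 and 6.75 in Chd1KD (limma, adjusted p = 0.29). It was called with the replicate number as a block and without Control replicate 1, and its log2 difference of 1.32 ranged from 0.41 to 2.23 with 1 library left out. Lce1g, another, measured 17.7 and 5.04 RPKM in Control, against 12.5 and 8.39 in Chd1KD. Sprr1a, Sprr1b, Lce1g and Lce1h all had their higher value in replicate 1 of each group. SPRR and LCE genes have close copies between which reads can be split, so these levels are uncertain.

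Sprr2g, below the filter, was listed at 0.173 and 0.171 RPKM in Control, against 1.04 and 0.978 in Chd1KD, the same direction as Sprr1a. Ppl (periplakin), which links the envelope to desmosomes, had ratio 0.89 (limma, adjusted p = 0.43). Loricrin (Lor), Sprr3 and Krtdap were listed at 0 in all libraries, and involucrin (Ivl) had 0.957 and 0.644 RPKM in Control, against 0.948 and 1.097 in Chd1KD. S100 genes, several of which lie in the same complex, had 8 of 15 tested and none called (limma; none had an unadjusted p under 0.05), with a median log2 difference of -0.03. S100a10 was at 0.90 of Control, S100a3 at 1.16 and S100a4 at 0.77.

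Of 7 tested keratins, none was called, against 0.46% of all tested genes (limma; 4 had an unadjusted p under 0.05, against 18.5%), and the median log2 difference was -0.12. Krt14, the basal keratin, measured 3.78 and 3.22 RPKM in Control, against 1.89 and 1.29 in Chd1KD, a ratio of 0.46 that missed the threshold (limma, adjusted p = 0.073). It was called with the replicate number as a block, with a robust trend, without Control replicate 2 and without Chd1KD replicate 1. Its partner Krt5 had ratio 1.24 (limma, adjusted p = 0.22). Krt7 had ratio 0.64 and Krt18, a main simple-epithelial keratin, 0.84 (limma, adjusted p = 0.10 and 0.11). Krt7 was called without Chd1KD replicate 1. Krt19, a simple-epithelial keratin below the filter, was listed at 1.13 and 1.04 RPKM in Control, against 0.085 and 0 in Chd1KD.

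Of 14 tested junction and desmosome genes, 1 was called, Dsg2, a desmosomal cadherin, and it was higher in Chd1KD, against 0.46% of all tested genes called. Dsg2 measured 6.33 and 6.52 RPKM in Control, against 9.40 and 9.36 in Chd1KD, a ratio of 1.46 (limma, adjusted p = 0.049). The call was lost without Control replicate 1, without either Chd1KD replicate and under 4 other settings. Cldn4, a tight junction claudin named after its value was seen, had ratio 1.75 (limma, adjusted p = 0.051) and was called under 6 of 14 alternatives, among them the replicate block, the robust trend and the filter of 5 RPKM. The list was evenly split, with 7 positive and 7 negative differences and a median of 0.02.

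Of 23 tested epithelial transcription and splicing regulators, none was called (limma; 9 had an unadjusted p under 0.05, against 18.5% of all tested genes), and 12 differences were positive and 11 negative. Fosl1, an AP-1 subunit, measured 68.9 and 62.6 RPKM in Control, against 51.2 and 48.9 in Chd1KD (ratio 0.76, limma, adjusted p = 0.079). It was called with the replicate number as a block and without Control replicate 2. Among other AP-1 subunits, Fosl2 went the other way, with ratio 1.29 and no overlap of the groups (limma, adjusted p = 0.12). Jun, Junb and Jund had ratios of 1.16, 1.06 and 1.08 with overlapping groups, and Fos, below the filter, averaged 0.87 RPKM. Klf4, a regulator of epithelial differentiation, had ratio 0.78 and Esrp2, an epithelial splicing factor, 1.36 (limma, adjusted p = 0.11 and 0.10), and Klf4 was called with the replicate block. Esr1, the estrogen receptor that drives Tff1 in human breast cells, stayed near 1 RPKM (ratio 0.93), and Trp63, the master regulator of stratified epithelium, did not exceed 0.002 RPKM.

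Markers of other cells that express these genes were followed in the same libraries. In bulk RNA, fewer expressing cells and less RNA per cell cannot be told apart. For Pglyrp1, all 12 neutrophil markers were under 1 RPKM and 10 were listed at 0, with a summed level of 0.0063 and 0.035 RPKM in Control, against 0.013 and 0.020 in Chd1KD. For Dmkn and Sprr1a, 5 of 12 keratinocyte markers were tested (Krt5, Krt14, Krt10, Sbsn and Itgb4) and 5 were listed at 0. Their summed level was 23.2 and 21.6 RPKM in Control, against 23.7 and 19.5 in Chd1KD, and the groups overlapped. For Tff1, the only marker of gastric and goblet epithelium above 1 RPKM among 9 matched was Tff2, and Gkn1, Gkn2, Pgc, Cblif and Spdef were listed at 0.

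The position of the genes was not used to choose them. Within 100 kb of the 5 genes, 43 genes were in the table and 16 were tested. None of the 16 was called (limma; 5 had an unadjusted p under 0.05, against 18.5% of all tested genes), with 11 negative and 5 positive differences and a median of -0.08. Beside Dmkn, its cluster partner Sbsn, 7.62 kb away, measured 8.81 and 6.13 RPKM in Control, against 9.55 and 6.08 in Chd1KD. Its groups overlapped, and Krtdap, 6.84 kb away on the other side, was listed at 0. Tmem147 had ratio 1.02 and Haus5 0.84 (limma, adjusted p = 0.88 and 0.25).

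Ccdc61, a centrosomal gene 0.445 kb from Pglyrp1, measured 6.93 and 6.68 RPKM in Control, against 5.98 and 5.11 in Chd1KD. Its ratio of 0.81 did not pass (limma, adjusted p = 0.20), and Psg17 had ratio 1.06. All 8 tested neighbours of Lgals2 had negative differences of between -0.26 and -0.06, none called, the lowest being Pdxp at 0.78 of Control and Gga1 at 0.86 (limma, adjusted p = 0.26 and 0.16). The others were Nol12, Cdc42ep1, Triobp, Lgals1, Sh3bp1 and Card10, at 0.88 to 0.96 of Control. Card10 and Lgals1 turned positive with 1 library left out, Lgals1 also with quantile normalization, and 43.5% of all tested genes had positive differences. Around Tff1 the tested neighbours were Tff2, 17.1 kb away, and Tff3, 31.8 kb away, described above. Sprr1b, 45.1 kb away, was the only tested neighbour of Sprr1a.

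**Figure D5:**
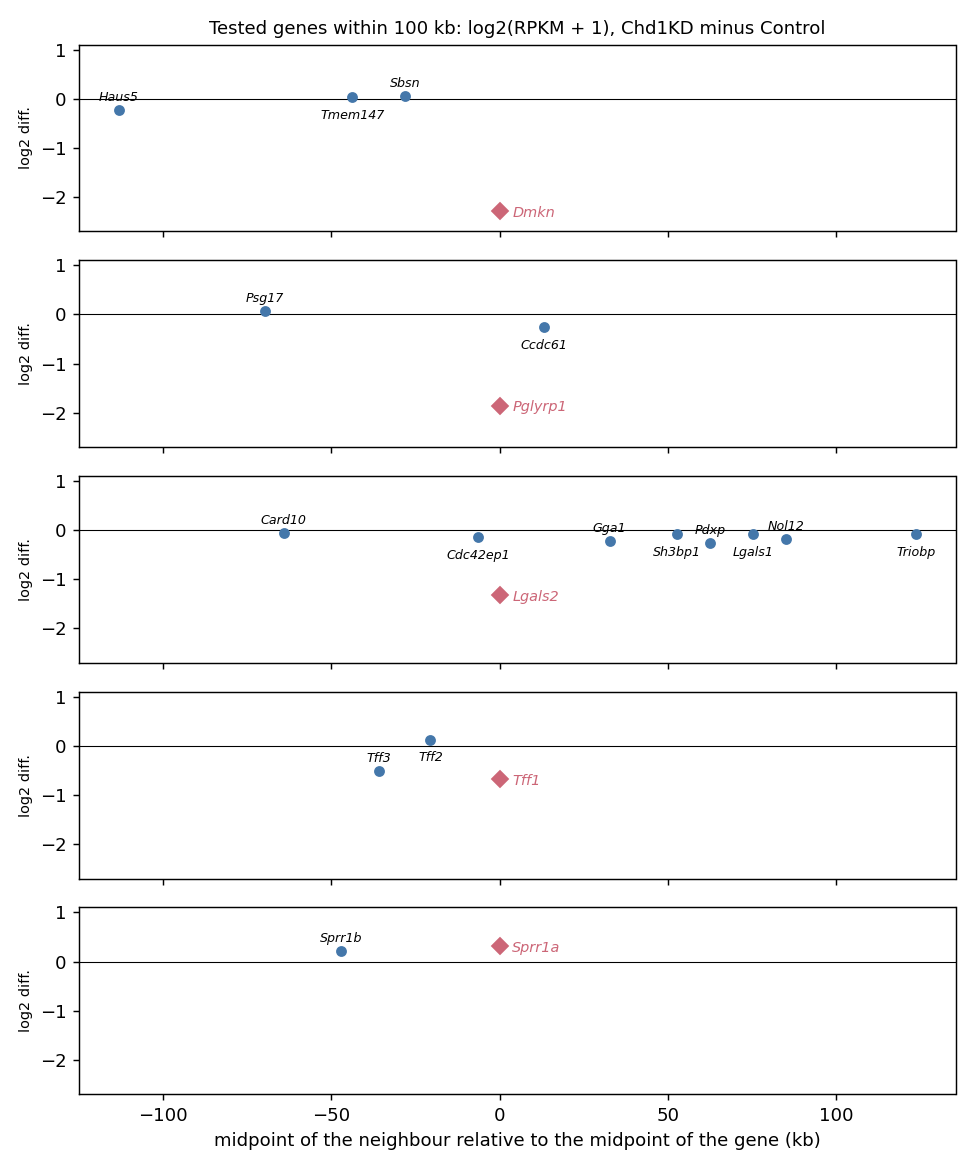
Difference between groups on the log2(RPKM + 1) scale for tested genes within 100 kb (blue circles) against the distance in kb between gene midpoints, 1 panel for each of the 5 genes (red diamonds). The neighbours lie between -0.51 (Tff3) and 0.21 (Sprr1b). Dmkn, Pglyrp1 and Lgals2 lie at -2.29, -1.86 and -1.33, and Tff1 and Sprr1a at -0.68 and 0.31, near Tff3 and Sprr1b. The 5 genes were chosen on this difference and the neighbours were not.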

How the data were processed

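Per the file headers, the authors deposited RPKM values for 30582 RefSeq transcripts, with 1 column per library. TopHat 1.4.1, Cufflinks 1.3.0 and the build mm10 appear in the submitters' processing notes, without their roles. Annotation release, strand setting, filters and depth are not stated there. Values in the 4 tables of single libraries were identical to those of the series table.

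Transcripts were named through the NCBI GRCm38.p6 table (30003 rows) and GENCODE M21 (180 rows), with 399 left unnamed, and RPKM was summed per gene. A total of 577 rows were further copies of a transcript. Genes averaging 1 RPKM or more entered a limma 3.58.1 fit (R 4.3.3) of log2(RPKM + 1) values, using a mean-variance trend and no block, and p-values were adjusted over all 10209 tested genes. With 2 against 2 libraries, no exact permutation test can reach the threshold, and none was used. The fit was also run on simulated data with normal noise drawn from its own variance estimates. Such data cannot show how it behaves with technical replicates or very low values.

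The 5 genes and the gene lists were chosen with earlier results of these data known. Named genes were the 5 genes, Chd1, their 3 nearest profiles (1 is not reported here), family relatives, neighbours within 100 kb, and from each list the called genes or else the 3 smallest p. Lce1g, Cldn4, Sprr2g, Krt19, Fosl2, Fos, Jun, Junb, Jund, Esr1, Trp63, Ivl and the markers were named outside this rule, after their values were seen. Alternatives covered pseudocount, filter, scaling, variance model, replicate block, transcript choice and each library left out. Protein sequences were not analysed here.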

Additional observations from a re-analysis of the deposited data

How the results depend on the processing

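Dmkn, Pglyrp1, Lgals2, Tff1 and Sprr1a kept their direction under all alternatives that could be computed (13 for Dmkn, which the filter of 5 RPKM removed, and 14 for the others). Most of this was fixed in advance. The groups did not overlap, so leaving out a library or changing pseudocount, filter, block or variance model could not turn a sign. Only a change of scaling could have. The log2 difference ranged from -4.30 to -1.81 for Dmkn, -2.31 to -1.56 for Pglyrp1, -1.51 to -1.14 for Lgals2, -0.71 to -0.66 for Tff1 and 0.16 to 0.47 for Sprr1a. Values that moved beyond the replicate SD were those of Dmkn with pseudocounts of 0.1 (-4.30) and 0.5 (-2.97), of Pglyrp1 with 0.1 (-2.31), and of Tff1 with 0.1 (-0.71) and with median-of-ratios scaling (-0.66). These pseudocount shifts follow from the scale itself. Calls changed with the setting. Without a filter and without a trend, none of these genes was called. With a robust trend and with the most abundant transcript, only Lgals2 and Tff1 were called. With quantile normalization Pglyrp1, Lgals2 and Tff1 were called and Dmkn was not. Sprr1a was called, as higher, only without Control replicate 1, a fit with 1 Control library left. The number of called genes was 47. It was 0 without a filter (2153 at an unadjusted p under 0.05), 71 with a filter of 5 RPKM, 6 without a trend, 92 with a robust trend and 12 with the most abundant transcript, and 49 to 236 with 1 library left out (140 without Control replicate 1, 236 without Control replicate 2 and 122 without Chd1KD replicate 2); the cause was not tested. A group left with 1 library is assumed to vary like the other. With the replicate number as a block (replicate block) 325 genes were called. No label says that the numbers pair the libraries, although the deposited columns are numbered alternately, Control, Chd1KD, Control, Chd1KD. Same-numbered deviations correlated at r = 0.22 across genes, and 2 pairs cannot settle it. Of uncalled genes, the sign turned with a library left out for Card10 (range -0.163 to 0.0457), Itgb4 (-0.157 to 0.0886), Lce1g (-0.73 to 0.90), Lgals1 (-0.205 to 0.0440), S100a4 (-0.64 to 0.0516), Sbsn (-0.24 to 0.33), Sprr1b (-0.32 to 0.74) and Tmem147 (-0.0617 to 0.113). It also turned for Lgals1 with quantile normalization (0.0506) and for Itgb4 with the most abundant transcript (0.0213).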
